A study of Populus trichocarpa with 9 samples.

Results

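The genes described here were lower in stem-differentiating xylem (SDX) 7 d after stem bending but close to the control level after 3 d. They were chosen from their own values. A gene qualified when at least 1 group mean reached 2 CPM (counts per 1000000 counts of the library), when its 7-day change was -0.8 or lower, when its 3-day change lay between -0.4 and 0.4, and when its CPM in every 7-day library was below that in every control and 3-day library. Both changes are log2 ratios of group means to the control mean after adding 1 CPM, from which the median over all genes at 2 CPM or more was subtracted. They are called the centred 3-day change and the centred 7-day change here. The rule selected 195 of 41335 gene models, and 23743 of these models reached the 2 CPM level. It kept at most 300 genes, a cap that was not reached. Because these choices used the values of all 9 libraries, the changes of the 195 genes between the groups are a description. Counts of calls from fits over all genes are given further on for completeness, and nothing is read from them.

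The study induced tension wood by bending the stem of *Populus trichocarpa* and followed the transcriptome of the SDX. The trees belonged to genotype Nisqually-1, as the study's methods say. They were 6 months old, greenhouse-grown, and bent to an angle of 90°. The control group (day 0) was SDX from non-bent trees, and the 3-day and 7-day groups were SDX scraped from the upper side of stems at 3 d and 7 d after bending. Each group had 3 libraries numbered 1 to 3. The study describes the replicates of these groups as biological, and the labels do not say which tree each library came from. No non-bent stems were harvested at 3 d or 7 d in these libraries, and bending cannot be told apart from time and harvest day.

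Tension wood forms on the upper side of leaning stems of angiosperm trees. Its fibers typically deposit an inner gelatinous layer that is rich in cellulose and poor in lignin, and contraction of this layer helps to pull the stem upright. SDX is the layer of young xylem cells under the bark in which vessel elements and fibers expand and lay down the secondary cell wall, and the scraped tissue also holds ray parenchyma. In such bulk tissue, fewer cells of a type and less RNA per cell cannot be told apart.

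The identity of the tissue was checked with the 5 secondary-wall cellulose synthases that the study names (PtrCesA4, PtrCesA7, PtrCesA8, PtrCesA17 and PtrCesA18), which build the cellulose of the xylem wall. They had 228 to 5064 CPM over the 9 libraries. Totals were 20888144 to 29539805 counts per library, so that a single count was worth 0.0339 to 0.0479 CPM. The 10 most abundant genes took 3.79 to 4.27% of the counts in the controls, 3.61 to 5.41% in the 3-day libraries and 6.55 to 7.18% in the 7-day libraries. The median over all genes at 2 CPM or more was -0.05 at 3 d and -0.29 at 7 d before it was subtracted. A pair of libraries stood apart in the genes described here, control replicate 1 and 3-day replicate 2. The centred changes, the number of genes that met the rule and the counts of calls are also given without them.

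The gene table pairs its IDs with no names, and the reference table used here matched 0 of them. For none of the 195 genes is a name, function, promoter or protein therefore given, and no marker list of another cell type was applied. Only 31 wood genes carry a name, through the study's own lists, and 0 of these 31 were among the 195. The IDs printed are Potri.004G015300, which had the lowest centred 7-day change, and Potri.018G100200, which had the highest mean CPM over the control and 3-day libraries. IDs of genes that lie next to each other are also given and were chosen after their values were seen.

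The 195 genes together took 1.499, 1.05 and 1.05% of all counts in control replicates 1, 2 and 3. They took 1.14, 1.01 and 1.09% in the 3-day libraries, and 0.381, 0.523 and 0.409% in the 7-day libraries. Summed over the genes, this came to 12000 ± 2588 CPM in the controls, 10780 ± 617 CPM at 3 d and 4376 ± 750 CPM at 7 d (SD, n = 3 each). Every 7-day sum was below every other sum, which the rule brings about for each gene. The 3-day sums lay within the range of the controls apart from that of 3-day replicate 2, which at 10128 CPM was below the lowest control at 10473 CPM. Control replicate 1 was the highest library with 14988 CPM, and without it the control mean was 10506 CPM, slightly below the 3-day mean. The 2 genes named above made up 14.7 to 18.7% of the sum in the 7-day libraries and 21.6 to 33.2% in the control and 3-day libraries. Without them the sums were 9200 ± 1861 CPM in the controls, 7983 ± 1097 CPM at 3 d and 3621 ± 547 CPM at 7 d (SD, n = 3 each).

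The library medians set 3-day replicate 2 further apart than the sums did. Relative to the control mean, the median gene of the 195 stood at 0.27, -0.13 and -0.19 on the log2 scale in control replicates 1, 2 and 3, before any centring. The median was -0.09, -0.59 and -0.10 in 3-day replicates 1, 2 and 3. It was -1.35, -1.14 and -1.41 in 7-day replicates 1, 2 and 3. Thus 3-day replicates 1 and 3 were near the control mean, and 3-day replicate 2 was lower than both but above all 7-day libraries. Over all 23743 genes at 2 CPM or more, the medians were between -0.17 and 0.04 in the control and 3-day libraries and were -0.38, -0.17 and -0.33 in the 7-day libraries.

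**Figure D1:**
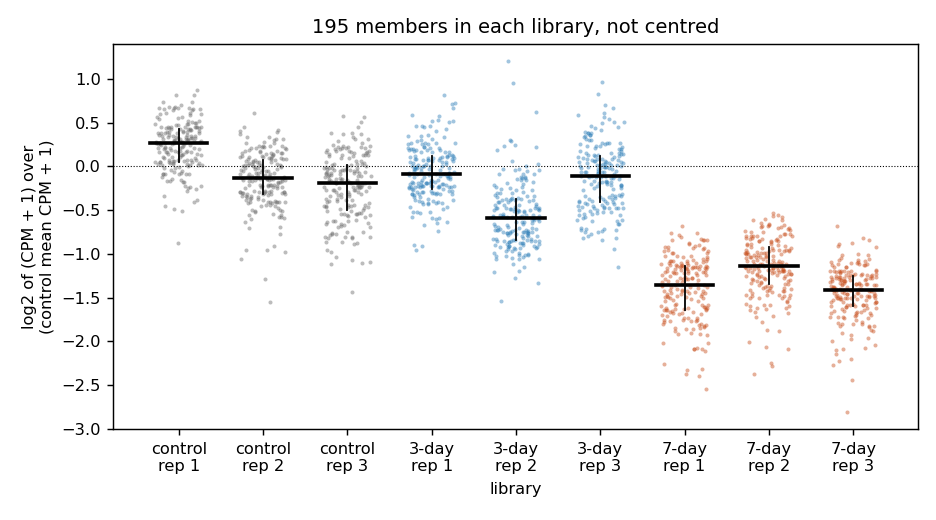
Log2 of (CPM + 1) over (control mean CPM + 1) for each of the 195 genes (points) in each of the 9 libraries, with the median (thick bar) and the range between the quartiles (thin line). Library medians were between -1.41 and -1.14 at 7 d, and 3-day replicate 2 had a median of -0.59, below the -0.09 and -0.10 of the other 3-day libraries.

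The size of the decrease was moderate for most of the genes. The centred 7-day change ran from -2.23 to -0.80 with a median of -0.95 and quartiles of -1.11 and -0.85, and 115 of the 195 genes lay between -1 and the threshold of -0.8. A change of -1 or lower was found for 80 genes (41.0%), a change of -1.5 or lower for 8 genes, and a change of -2 or lower for 1 gene. Just inside the threshold stood genes at -0.801 and -0.802, and just outside it genes at -0.799 and -0.797 that met the other conditions. In CPM without a pseudocount, the 7-day mean was 14.4 to 46.2% of the control mean, with a median of 38.4%. The 8 genes with a centred 7-day change of -1.5 or lower, which is computed with the pseudocount, had 7-day means of 17.4 to 26.1% and 3-day means of 75.4 to 94.9% of their control means, which were 20.5 to 1480 CPM.

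The gap that separated the 7-day libraries from the others was often narrow. The lowest control or 3-day library exceeded the highest 7-day library 1.22-fold for the median gene, between 1.0004-fold and 2.56-fold over all 195 genes. Complete separation of this kind, at any size, was found for 3439 of the 23743 genes (14.5%). The gap and the separation were taken from CPM of library totals without centring. They therefore include the general shift at 7 d, where the median over all genes at 2 CPM or more was -0.29 on the log2 scale. With TMM-scaled library sizes, 130 of the 195 genes still met the rule. Another 201 genes met every condition except the separation. In these 201 the highest 7-day library was replicate 2 in 98 genes (48.8%, against 54.6% of all genes at 2 CPM or more). It was replicate 1 in 94 genes (46.8%, against 23.2%). The lowest of the other 6 libraries was 3-day replicate 2 in 90 genes (44.8%, against 29.0%).

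The genes covered a wide range of levels. Control means ran from 2.13 to 1480 CPM with a median of 22.2 CPM, against a median of 15.4 CPM over all 23743 genes. The median of the group means was 18.7 CPM at 3 d and 8.61 CPM at 7 d. A control mean of at least 100 CPM was found for 28 of the genes (14.4%), against 7.90% of all genes at 2 CPM or more. The median centred 7-day change was -1.03 for those 28 genes, -0.98 for the 51 genes with 30 to 100 CPM, and -0.94 both for the 67 genes with 10 to 30 CPM and for the 49 genes below 10 CPM. Without the pseudocount the order was not the same, since the median 7-day mean was 39.7, 40.6, 38.8 and 32.1% of the control mean in these classes from the highest level to the lowest. CPM does not take account of gene length, which was not used here, so these levels do not rank the genes against each other. The 7-day values rested on 31 to 37153 counts per gene summed over the 3 libraries, with a median of 659.

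Whether the genes were lowered only at 7 d is a matter of where the 3-day band ends. The centred 3-day change ran from -0.40 to 0.37 with a median of -0.20, and it was negative in 161 of the 195 genes (82.6%), against 49.998% of all genes at 2 CPM or more. It lay between -0.4 and -0.2 in 97 genes, within 0.2 of 0 in 86 genes, and above 0.2 in 12 genes. The share of negative values over all genes is fixed by the centring. Both changes use the same control mean, so the larger share in the 195 genes is partly built in by the choice of low 7-day changes. Without control replicate 1, 102 of the 195 genes were negative at 3 d. If the 3-day condition is left out, 428 genes qualified. Of these, 221 were below -0.4 at 3 d and 12 were above 0.4. Counted in steps of 0.2 from -0.8, the 428 genes numbered 71, 85, 97, 64, 22 and 12 up to 0.4, with 29 below -1 and 36 between -1 and -0.8. The counts on either side of the limit at -0.4 were thus close, 85 below it and 97 above it, with no gap between them. The 221 genes that were lower already at 3 d had a median centred 7-day change of -1.17, a median centred 3-day change of -0.65 and a median control level of 24.0 CPM. The same rule turned round, for genes higher at 7 d, gave 370 genes before its cap of 300 genes was applied.

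**Figure D2:**
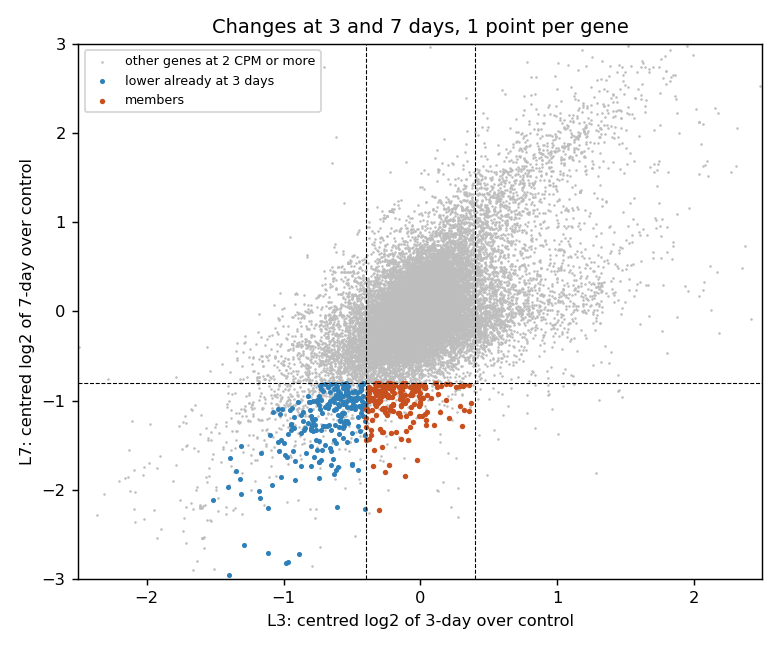
Centred 3-day change (horizontal, log2) against centred 7-day change (vertical, log2) for genes at 2 CPM or more, with the limits of the rule as dashed lines. The 195 members (orange) and the 221 genes lower already at 3 d (blue) adjoin at the limit of -0.4 without a gap, and most grey points below -0.8 are genes without separated libraries. Genes outside the axis ranges are not drawn.

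Single libraries stood out in these changes. Among the 6 control and 3-day libraries, 3-day replicate 2 was the lowest in 111 of the 195 genes (56.9%), against 29.0% of all genes at 2 CPM or more. Control replicate 1 was the highest in 109 genes (55.9%), against 15.4% of all genes. Both held in 56 genes (28.7%), against 5.60% of all genes. In the 221 genes that were lower already at 3 d, these shares were 57.5, 62.9 and 34.4%. 3-day replicate 2 was below all 3 controls in 128 of the 195 genes (65.6%, against 41.4% of all genes), 3-day replicate 1 in 38 genes (19.5%, against 29.6%) and 3-day replicate 3 in 41 genes (21.03%, against 25.02%). All 3-day libraries were below all controls in 6 genes (3.08%, against 10.5% of all genes) and above all controls in 0 genes (against 5.45%). All these shares are descriptions, because the rule used the same values. A high control library favours a low 7-day change, and the 3-day condition and the separation bear on the counts of 3-day libraries.

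**Figure D3:**
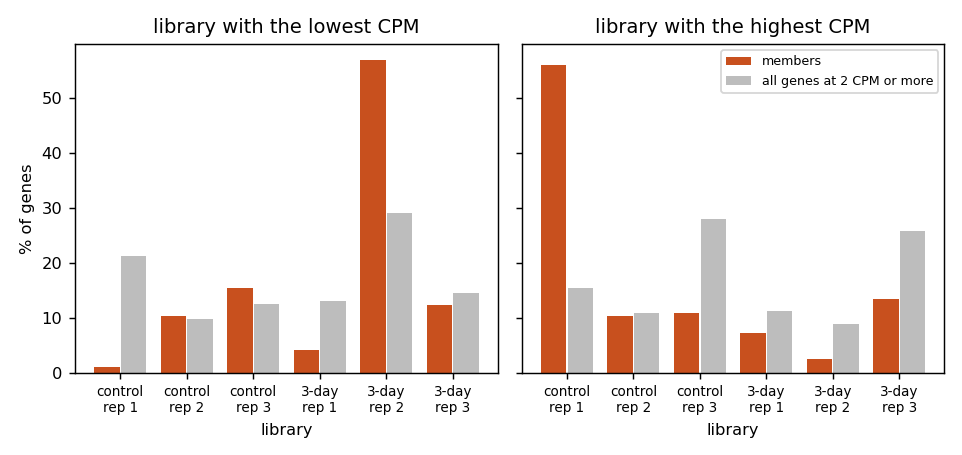
Share of genes (%) for which each of the 6 control and 3-day libraries had the lowest CPM (left) or the highest CPM (right), for the 195 members (orange) and for all genes at 2 CPM or more (grey). 3-day replicate 2 was lowest in 56.9% and control replicate 1 highest in 55.9% of the members.

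The values of the same 195 genes were computed again without these libraries. Without control replicate 1 the median centred 3-day change was -0.01 and the median centred 7-day change -0.83, and 107 of the 195 genes still reached -0.8 at 7 d. Without 3-day replicate 2 the medians were -0.08 at 3 d and -0.95 at 7 d, and 177 genes stayed within the 3-day band. Without both, the medians were 0.10 at 3 d and -0.83 at 7 d, with 75 genes negative at 3 d, 31 genes above the band and 7 below it. That the 7-day libraries stayed below the others is fixed by the choice of the genes, and only the size of the changes is described by these values. When the rule itself was applied again, 159 genes qualified without control replicate 1, of which 99 were among the 195. Without 3-day replicate 2 there were 325 genes with 177 of the 195, and without both there were 264 genes with 92 of the 195.

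Within groups the genes varied more than most. The coefficient of variation over the 3 replicates had a median of 29.1% in the controls, against 18.3% over all genes at 2 CPM or more. It was 29.2% against 18.2% in the 3-day libraries, and 22.5% against 16.8% in the 7-day libraries. These values are a description, because the genes were chosen from the same libraries. A high control library favours entry into the group and also widens the spread of the controls. The spread was not computed without control replicate 1 or 3-day replicate 2. Among the 7-day libraries, replicate 3 was the lowest in 98 genes (50.3%, against 28.1% of all genes) and replicate 2 the highest in 115 genes (59.0%, against 54.6%).

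Fits of edgeR's quasi-likelihood test to the counts of 27795 genes included all 195 genes. The median fitted log2 change of the 195 genes was -1.12 for 7 d against control, -0.96 for 7 d against 3 d, and -0.21 for 3 d against control. The medians over all tested genes were -0.06, -0.02 and -0.005. For 7 d against control, 95 of the 195 genes were below an adjusted p of 0.05, all lower, where 2.68% of all tested genes were called lower (745 genes) and 6.07% higher (1687 genes). The rule used all 3 contrasts, so nothing is read from this count or from those that follow. Both counts of lower genes depended on single libraries. Without 7-day replicate 3 there were 4 of the 195 and 28 of all genes, and without control replicate 1 there were 19 of the 195 and 146 of all genes. Without 7-day replicate 1 there were 22 and 213, and without both control replicate 1 and 3-day replicate 2 there were 40 and 253. With library totals in place of the scaling factors of edgeR there were 163 and 2119. DESeq2 gave 175 and 1589, the second being 5.44% of its tested genes.

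For 7 d against 3 d, edgeR called 0 of the 195 genes and 0% of all genes at an adjusted p of 0.05. At an unadjusted p of 0.05, 179 of the 195 genes and 9.01% of all genes were lower, and DESeq2 called 97 of the 195 lower with 2.56% of all its tested genes. For 3 d against control, edgeR called 0 of the 195 genes and 0% of all genes. Here 1 of the 195 genes and 5.54% of all genes were lower at an unadjusted p of 0.05, and DESeq2 called 0 of the 195 and 1.15% of all its tested genes lower. The study itself reported differentially expressed genes at 3 d, PtrHSFB3-1 and PtrMYB092 among them, at a false discovery rate under 0.05. The edgeR fit used here thus differs from the study at 3 d, and the reason was not tested. The standard error of the fitted log2 change had a median of 0.31 for 3 d against control. With such an error, a change of the size of the band could not be resolved for most single genes, and a gene that missed the threshold at 3 d is not shown to be unchanged.

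Potri.004G015300, on chromosome 4 by its ID, had the lowest centred 7-day change. It had 2165, 1088 and 1189 CPM in control replicates 1, 2 and 3, then 1123, 793 and 1566 CPM in the 3-day libraries, and 252, 310 and 211 CPM in the 7-day libraries. The 7-day libraries were close together and far below the others, while the control and 3-day libraries overlapped. The mean was 1480 ± 595 CPM in the controls, 1161 ± 388 CPM at 3 d and 257.5 ± 50.03 CPM at 7 d (SD, n = 3 each), a 5.75-fold lower mean at 7 d than in the controls. The lowest other library exceeded the highest 7-day library 2.56-fold. Its centred changes were -0.30 at 3 d and -2.23 at 7 d. Without control replicate 1 they were 0.09 and -1.84, and without both control replicate 1 and 3-day replicate 2 they were 0.26 and -1.85. Without control replicate 2, control replicate 3 or 3-day replicate 3 its 3-day change was -0.48, -0.47 or -0.52, which is outside the band.

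The genes beside it did not share its change. Of the next genes at 2 CPM or more, Potri.004G015200 had a centred 7-day change of -0.28 and Potri.004G015400 one of 0.30. The gene after that, Potri.004G015500, was again one of the 195 with -0.90. It had 12.5, 9.94 and 14.8 CPM in the controls, 9.0, 10.4 and 8.53 CPM at 3 d, and 5.01, 6.17 and 3.47 CPM at 7 d.

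Potri.018G100200, on chromosome 18 by its ID, carried the most counts at 7 d, 37153. It had 1480, 1190 and 1288 CPM in control replicates 1, 2 and 3, then 1335, 2569 and 1005 CPM in the 3-day libraries, and 309, 668 and 517 CPM in the 7-day libraries. In contrast to most of the genes, 3-day replicate 2 was here the highest library of all 9. The mean was 1320 ± 147 CPM in the controls, 1637 ± 825 CPM at 3 d and 498 ± 180 CPM at 7 d (SD, n = 3 each), a 2.65-fold lower mean at 7 d than in the controls. The centred change was 0.36 at 3 d and -1.12 at 7 d. The 3-day value rested on 1 library, since it was -0.17 without 3-day replicate 2. It was 0.46, 0.49 and 0.67, outside the band, without control replicate 1, 3-day replicate 1 and 3-day replicate 3.

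**Figure D4:**
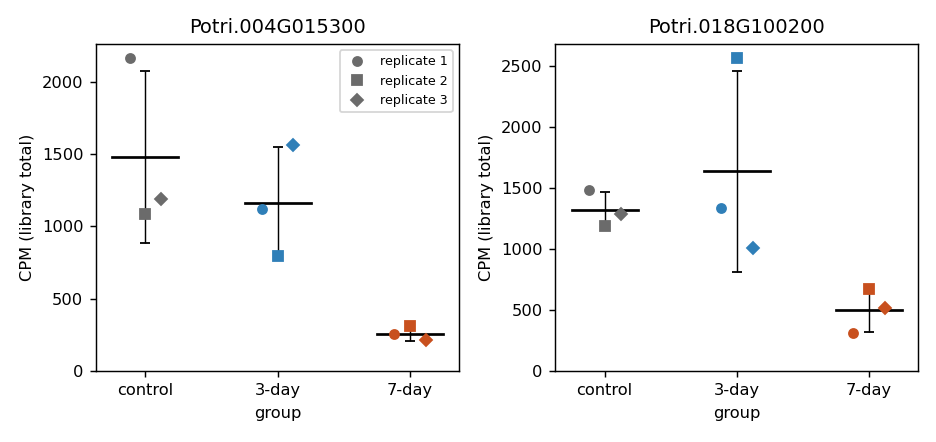
CPM of Potri.004G015300 (left) and Potri.018G100200 (right) in each library, with the group mean (bar) and SD (whiskers, n = 3) for control, 3-day and 7-day. The 7-day values were 211 to 310 CPM on the left and 309 to 668 CPM on the right, below every other library in both, and the highest point on the right is 3-day replicate 2 at 2569 CPM.

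The 12 genes with a centred 3-day change above 0.2 formed the other edge of the group. Their median stood at 0.39, -0.03 and 0.10 in 3-day replicates 1, 2 and 3 on the log2 scale relative to the control mean, and at -1.56, -1.13 and -1.28 in the 7-day libraries. In 8 of the 12 the highest of the 6 control and 3-day libraries was a 3-day one. This held in 32 of the 86 genes within 0.2 of 0 and in 5 of the 97 genes below -0.2. The classes were cut by the 3-day change itself, so the order of these counts is built in. Over all genes at 2 CPM or more, 3-day replicates 1, 2 and 3 were the highest in 11.3, 8.79 and 25.8%. The median centred 7-day changes of the 3 classes were -0.96, -0.94 and -0.94 from the lowest 3-day class to the highest.

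Position along the chromosomes was not used by the rule. By the chromosome number in their IDs, the genes were found on all 19 chromosomes, with most on chromosomes 1 (26 genes), 5 (18 genes) and 14 (17 genes), and 6 more had IDs that carry no chromosome. Relative to the genes at 2 CPM or more, the share ran from 0.329% on chromosome 13 to 1.40% on chromosome 14, against 0.821% over all. These differences were not tested.

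Some of the genes lay next to each other, though most did not. IDs of this annotation are numbered along each chromosome, and the neighbours of a gene were taken as the next genes at 2 CPM or more on either side. Of the 390 neighbour places of the 195 genes, 36 were held by another of the 195 (9.23%), against a share of 0.821% of all such genes. In all, 32 of the genes (16.4%) had another beside them, in 10 runs of 2 and 4 runs of 3. The 221 genes lower already at 3 d had 48 of 442 places held by their own kind (10.9%, against 0.931%). Of the 350 neighbours that were not among the 195, 40 had a centred 7-day change of -0.8 or lower (11.4%, against 5.14% of all genes). The median neighbour stood at -0.13 at 7 d and -0.05 at 3 d. Neighbouring copies of 1 gene can share reads, and the sources used here do not say how such reads were counted, so neighbours are not independent of each other.

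The run of Potri.003G102400, Potri.003G102500 and Potri.003G102600 held 2 genes with nearly equal values. Potri.003G102400 had 156, 148 and 75.1 CPM in control replicates 1, 2 and 3, then 127, 77.8 and 87.6 CPM at 3 d, and 71.7, 52.7 and 49.2 CPM at 7 d. Potri.003G102600 had 154, 147 and 72.9 CPM in the controls, 125, 75.8 and 85.4 CPM at 3 d, and 69.2, 51.0 and 45.8 CPM at 7 d. Their CPM ratio was 0.931 to 0.994 in all 9 libraries, and whether they share reads was not tested. Potri.003G102500 between them was lower, with 9.10, 10.7 and 5.47 CPM in the controls, 9.77, 4.71 and 7.33 CPM at 3 d, and 3.62, 2.21 and 2.28 CPM at 7 d. In the outer genes, 7-day replicate 1 lay just under control replicate 3 and the groups were barely apart.

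The run of Potri.014G021500, Potri.014G021600 and Potri.014G021700 had controls that were close to each other in its outer genes. Potri.014G021500 had 10.7, 10.6 and 9.82 CPM in the controls, 12.2, 5.02 and 15.1 CPM at 3 d, and 2.27, 3.20 and 3.06 CPM at 7 d. Potri.014G021700 had 12.1, 11.5 and 11.3 CPM in the controls, 16.3, 6.53 and 19.5 CPM at 3 d, and 2.51, 3.77 and 3.47 CPM at 7 d. In both genes 3-day replicates 1 and 3 were above all of them, and 3-day replicate 2 lay between the controls and the 7-day libraries. Potri.014G021600 was near the 2 CPM level with 2.11, 3.53 and 4.13 CPM in the controls, 2.97, 1.21 and 5.07 CPM at 3 d, and 0.542, 0.895 and 0.634 CPM at 7 d. The centred 7-day changes of the run were -1.28, -1.05 and -1.29.

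In the run of Potri.005G005900, Potri.005G006000 and Potri.005G006100, 7-day replicate 1 was the lowest library in every gene. Potri.005G005900 had 135, 132 and 158 CPM in the controls, 120, 90.8 and 126 CPM at 3 d, and 39.6, 89.5 and 65.3 CPM at 7 d, so that 7-day replicate 2 nearly reached 3-day replicate 2. Potri.005G006000 had 15.4, 18.6 and 15.4 CPM in the controls, 21.4, 8.69 and 17.2 CPM at 3 d, and 2.64, 6.83 and 6.60 CPM at 7 d. Potri.005G006100 had 25.2, 25.6 and 21.8 CPM in the controls, 23.0, 13.1 and 24.0 CPM at 3 d, and 4.94, 12.3 and 9.44 CPM at 7 d.

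The run of Potri.005G113700, Potri.005G113900 and Potri.005G114000 differed in that the controls themselves were spread. Potri.005G113900 had 19.6, 6.76 and 15.7 CPM in control replicates 1, 2 and 3, then 17.0, 8.21 and 8.16 CPM at 3 d, and 4.33, 5.94 and 4.14 CPM at 7 d. Potri.005G114000 had 17.6, 3.81 and 10.7 CPM in the controls, 16.6, 6.01 and 6.64 CPM at 3 d, and 3.52, 3.63 and 2.91 CPM at 7 d. In both genes control replicate 2 was close to the 7-day libraries, and control replicate 1 and 3-day replicate 1 were the highest. Potri.005G113700 had 7.12, 2.15 and 5.52 CPM in the controls, 5.94, 2.59 and 3.27 CPM at 3 d, and 1.69, 1.98 and 1.46 CPM at 7 d.

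**Figure D5:**
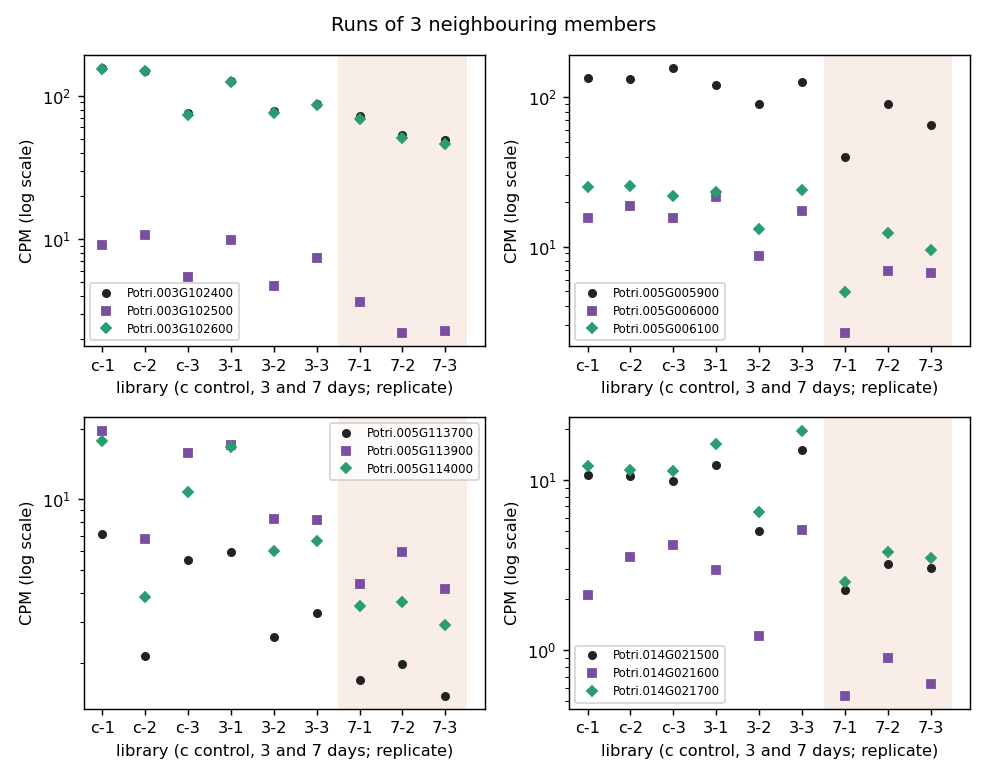
CPM (log axis) in each of the 9 libraries for the genes of the 4 runs of 3 neighbouring members, with the 7-day libraries shaded. Every 7-day point lies below all other points of its gene, Potri.003G102400 and Potri.003G102600 nearly coincide, and 3-day replicate 2 is the lowest 3-day library for most of the genes.

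The abundant Potri.018G100200 also had a neighbour in the group. Potri.018G100300 had 164, 130 and 182 CPM in the controls, 110, 185 and 120 CPM at 3 d, and 49.3, 58.2 and 63.2 CPM at 7 d, with a centred 7-day change of -1.18. In both genes 3-day replicate 2 was the highest library, unlike in most of the 195. Their CPM ratio ranged over 2.22-fold between libraries. Over the 18 directly neighbouring pairs of members, this spread of the ratio had a median of 1.70-fold, against 2.73-fold over 23524 neighbouring pairs of genes at 2 CPM or more, and it was under 1.3-fold in 5 of the 18 pairs, against 3.46% of all pairs. Both genes of a member pair had to meet the same rule, so a narrow ratio is partly built in.

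As 0.821% of all genes at 2 CPM or more met the rule, its finding 0 of the 31 wood genes is no result about them. Of the 31, 6 had a centred 7-day change of -0.8 or lower, against 1220 of the 23743 genes at 2 CPM or more (5.14%). All 6 were below -0.4 at 3 d as well. They were the transcription factor genes PtrHSFB3-1 and PtrMYB092, the monolignol genes PtrPAL1, PtrPAL3 and Ptr4CL5, whose enzymes act early in the phenylpropanoid pathway that supplies lignin, and PtrCslA2, a hemicellulose synthase gene. PtrPAL1 had 569 to 1888 CPM in the controls, 339 to 536 CPM at 3 d and 169 to 265 CPM at 7 d, and its centred change was -1.52 at 3 d and -2.11 at 7 d. PtrMYB092 had 37.5 to 108 CPM in the controls, 27.97 to 29.3 CPM at 3 d and 12.4 to 26.3 CPM at 7 d, with centred changes of -1.39 at 3 d and -1.64 at 7 d. In PtrHSFB3-1, Ptr4CL5 and PtrCslA2 the 7-day libraries were not all below the other libraries, and Ptr4CL5 was not called lower by edgeR. A centred 3-day change within the band was found for 9 of the 31, and none of these 9 reached -0.8 at 7 d. The study picked PtrHSFB3-1 and PtrMYB092 for their decrease in these libraries, so their direction is not independent evidence.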

How the data were processed

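RNA-seq of SDX gave 9 libraries in 3 groups of 3. The authors deposited raw read counts per gene model (version 3 of the *P. trichocarpa* gene models). The submitters' processing notes name TopHat, while the counter, its strand setting and its handling of multi-mapping reads were not given in the sources used here. CPM were computed from these counts with library totals. Depth was 20888144 to 29539805 counts per library.

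Fits used edgeR 4.0.16 in R 4.3.3 (TMM factors, filterByExpr, quasi-likelihood test over all 9 libraries, Benjamini-Hochberg adjustment, 27795 genes), checked on simulated counts, and DESeq2 1.42.0 as an alternative. TMM factors were 0.838 to 0.977 at 7 d and 0.973 to 1.11 in the other libraries. The members, the lists and the rule for named genes (the lowest 7-day change, the highest mean over control and 3-day libraries, members named by the study, and the genes nearest the threshold) were chosen with earlier results of these data known. Replicates of a group all differed beyond counting noise on average. For each pair of replicates the chi-square, as a mean over genes, was 22.0 to 92.4. For 7 d against 3 d, deviations of same-numbered libraries correlated by 0.280, 0.244 and 0.174, and those of unlike-numbered libraries by -0.272 to 0.0289. Unlike-numbered control and 3-day libraries correlated by up to 0.33 (control replicate 2 with 3-day replicate 3). Such values therefore do not show that replicate numbers pair libraries, and the labels do not say what a number marks. The reported values come from the fit without the block, and the fit with it is an alternative. Alternatives were other scaling, filters, pseudocounts and minimum levels, leaving out each library, and the replicate block. Word-based gene lists and motif searches were not run, because gene descriptions and sequences were not used here.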

Additional observations from a re-analysis of the deposited data

How the results depend on the processing

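The number of genes that met the rule was 146 with TMM-scaled library sizes (130 of the 195), 275 with a pseudocount of 0.25 CPM (183), 125 with 4 CPM (102), 201 with a minimum of 1 CPM (195), 190 with 4 CPM (183) and 396 without the separation (195). Without 1 library it was 159 to 539, with 99 to 177 of the 195 among them. The highest number came without 7-day replicate 2, and the cap of 300 was not applied to these counts. Without both control replicate 1 and 3-day replicate 2, an alternative chosen after seeing the data, it was 264.

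For 7 d against control, genes called lower numbered 745 overall and 95 of the 195. DESeq2 gave 1589 and 175, library totals, also added after seeing the data, 2119 and 163 (with 1101 higher, against 1687 with TMM factors), and the fit without the 2 libraries 253 and 40. Leaving out 1 library gave 28 to 818 overall and 4 to 104 of the 195, with the lowest counts without 7-day replicate 3. Other scaling factors and filters gave 656 to 898 and 94 to 113. For 3 d against control the count of 0 overall was 345 with DESeq2 and 0 to 2 without 1 library, and 0 of the 195 were called in these fits. For 7 d against 3 d, DESeq2 gave 623 overall and 97 of the 195, the fit without the 2 libraries 4 and 3, and fits without 1 library 0 to 3 and 0 to 2.

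With the replicate block, 511 genes and 87 of the 195 were lower for 7 d against control, 73 of them shared with the unblocked 95. For the same contrast 1336 genes were called higher with the block, against 1687 without it. The block gave 0 calls for 3 d against control and for 7 d against 3 d. A fit of the bent libraries alone also gave 0 for 7 d against 3 d. Deviations of control libraries correlated by -0.341 to 0.392 with those of same-numbered bent libraries. The centred 3-day change of Potri.004G015300 was 0.26 without both libraries. The causes were not tested.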
